A study of Mus musculus with 22 samples.

Results

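Of 10516 genes with a 5′ UTR row, 1804 (17.2%) had a 5′ UTR that carried more ribosome footprints per unit length than the coding sequence (CDS) it precedes. They were chosen in the 5 control footprint libraries. A gene entered when its 5′ UTR value was finite in all libraries (10400 genes), when the 5′ UTR reached at least 1 RPKM (reads scaled to region length and library size) in each of the 5 (7121 genes, called covered below), and when the mean 5′ UTR RPKM divided by the mean CDS RPKM was above 1. That quotient is called the footprint ratio. The members made up 25.3% of the covered genes, and the remaining 5317 covered genes serve as the reference. Because the control footprints chose the members, control ratios and any contrast with those same libraries are given as descriptions, without a test.

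The libraries come from NIH3T3 cells, an immortalised mouse fibroblast line, transduced with lentiviral shRNA vectors and selected with puromycin. Denr was knocked down with either of 2 hairpins, Denr shRNA1 and Denr shRNA2 (3 replicates each), and the controls carried a scramble shRNA (3 replicates) or a Gfp shRNA (2 replicates), so every group, controls included, had gone through transduction and selection. Each of the 11 lysates gave a footprint library (RPF-seq, the mRNA pieces that ribosomes shield from nuclease, after a brief cycloheximide treatment) and, from the same lysate, an RNA-seq library. A replicate was 1 dish of cells of 1 line. Tests of the knockdown pooled the 2 hairpins, and those on RNA also pooled the scramble and Gfp controls. Their p-values therefore measure the spread between dishes together with differences between the pooled vectors. Footprint tests had scramble as the only control, so differences between control vectors are not measured there.

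A ribosome that scans an mRNA from its cap can meet start codons ahead of the CDS, and a short reading frame opened there is an upstream open reading frame (uORF). Footprints on uORFs count towards the 5′ UTR, and translation of a uORF usually lowers the number of ribosomes that reach the main start codon. Some ribosomes stay on the mRNA after a uORF stop codon and start again downstream, which is termed reinitiation. DENR, with its partner MCTS1, helps to remove the spent tRNA and to recycle the small ribosomal subunit after termination, and the heterodimer is known as a reinitiation factor. Many mRNAs of the integrated stress response, of polyamine metabolism and of the circadian clock are textbook cases of uORF control.

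Upstream AUGs in the members take several forms, and 15 uORF starts are printed to show them. Each belongs to a gene described in the results, and each window lies within the annotated 5′ UTR of a transcript (GRCm38, GENCODE vM21) whose 5′ UTR length equals the length behind the deposited RPKM. The uORF with the highest Kozak score was taken among those whose window lies in 1 exon. The score adds points for bases around the AUG that match the preferred context of mammalian start codons and has a maximum of 13. Each sequence is written 5′ to 3′ on the gene's strand and begins 6 bases ahead of the AUG. It runs for at most 30 bases, with the AUG (as ATG) and a stop codon that falls inside the window in capitals.

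The first set shows minimal uORFs, whose stop codon follows the AUG within a few codons. Atf4 (chr15:80255576-80255593, plus strand, exon 1 of 3) has a uORF of 3 codons with a Kozak score of 13, and its CDS start scores 5. The uORF of Anapc5 (chr5:122821235-122821249, minus strand, exon 1 of 17) has 2 codons and scores 12, against 2 for the CDS start. Those of Ibtk (chr9:85744033-85744050, minus strand, exon 2 of 29) and Vegfd (chrX:164373549-164373569, plus strand, exon 1 of 7) have 3 and 4 codons.
Atf4: gccaccATGgcgtatTAG
Anapc5: gcagccATGgcgTAA
Ibtk: gcaattATGgctattTGA
Vegfd: gaagatATGaccacctccTGA

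A second set holds longer uORFs that end ahead of the CDS. That of Klhdc8a (chr1:132299156-132299185, plus strand, exon 1 of 5) starts at nucleotide 537 of a 5′ UTR of 651 nt, has 13 codons and ends 73 nt before the CDS. In Slc41a1 (chr1:131828301-131828330, plus strand, exon 1 of 11) the uORF has 62 codons, in Drosha (chr15:12826126-12826155, plus strand, exon 2 of 35) 20, in Ddit3 (chr10:127290823-127290852, plus strand, exon 1 of 4) 34, in Ppp1r15b (chr1:133131511-133131540, plus strand, exon 1 of 2) 51 and in Map3k10 (chr7:27674126-27674155, minus strand, exon 1 of 11) 30. The uORF of Etaa1 (chr11:17953840-17953869, minus strand, exon 1 of 6) begins at nucleotide 13 of the annotated 5′ UTR and has 22 codons, and its stop codon lies directly against the CDS start.
Klhdc8a: cgcgagATGgaggctgagagaggggacgcg
Slc41a1: ggagtgATGagaagagggggtaccctacat
Drosha: ttcaacATGggcacacacgactgtcacaga
Ddit3: tatatcATGttgaagatgagcgggtggcag
Ppp1r15b: gccgggATGgacctaaccgcggtcgccacc
Etaa1: gcaaagATGgcgctgcacggtggcgcgcgg
Map3k10: ccagctATGgtccccaggagccccccgggg

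The last set shows uORFs at the CDS start. Those of Nr1d1 (chr11:98774753-98774779, minus strand, exon 1 of 8) and Erbb2 (chr11:98412631-98412657, plus strand, exon 1 of 27) each have 6 codons and end 4 and 5 nt before the CDS. Those of Eif2ak3 (chr6:70844694-70844723, plus strand, exon 1 of 17) and Dbf4 (chr5:8422536-8422565, minus strand, exon 1 of 12) run into the first bases of the CDS in another frame.
Nr1d1: gtttgaATGaccgctttcagctggTGA
Erbb2: tgagccATGgggccggagccgcagTGA
Eif2ak3: gtctccATGcccgcgcgtggggcgggccgc
Dbf4: cgttccATGcggcccccggtgcggacccag

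The reads behind the RPKM values could be recovered. Totals ranged from 10927303 to 21649878 reads over 5′ UTR and CDS in the footprint libraries and from 8514080 to 20109698 in RNA-seq, and the member 5′ UTRs together held 264640 to 469666 footprint reads per library. Of the members, 1358 (75.3%) had at least 20 5′ UTR footprint reads in all 11 libraries. Denr RNA stood at 180.5 ± 11 RPKM in the controls (SD, n = 5), 40.5 ± 5.3 with Denr shRNA1 and 17.9 ± 2.7 with Denr shRNA2 (n = 3 each). All 10 fibroblast markers were measured, with a summed RNA level of 8652 to 11083 RPKM in the controls and 9062 to 11665 RPKM in the knockdown. Of the other cell types, Cdh1 (1 of 4 epithelial markers measured) lay at 2.74 to 4.05 RPKM over all libraries, Cdh5 (1 of 3 endothelial markers) at 0.54 to 1.10 RPKM, and none of 3 leukocyte markers was in the table. In bulk lysates, fewer cells of a kind and less RNA per cell cannot be told apart.

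A set of members carried a region length that was not that of an annotated 5′ UTR. In genes with a single exon on the minus strand, the length implied by the deposited RPKM never equalled an annotated 5′ UTR (0 of 41 covered genes), and in 32 of the 41 it lay within 3 nt of the annotated 3′ UTR. On the plus strand, 40 of 49 covered single-exon genes had the length of an annotated 5′ UTR. Of the 41, 34 (82.9%) were members, against 20.4% of the single-exon genes on the plus strand, and the 34 include all 14 histone members. The region named 5′ UTR for Rhob was 1282 nt long where its annotated 5′ UTR has 377 nt, and that for Sephs2 685 nt where 136 nt are annotated. Which region their reads fell in was not tested, and these genes are described as listed in the files. Without the 34, 1770 members remain. Among members with several exons, the length equalled an annotated 5′ UTR in 63.2% (minus strand) and 60.6% (plus strand).

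Most members exceeded their CDS by a modest factor. The quartiles of the control footprint ratio were 1.25, 1.64 and 2.48, and 649 members had a ratio above 2. Just inside the threshold lay Mapk7, Rhobtb1 and Ube3b, all at 1.00, and just outside Mapk9 and Adam17 at 1.00 and Pcf11 at 0.999, so that membership close to the threshold rests on differences smaller than the spread between libraries. Members differed from the other covered genes in their CDS level, which the rule favours, since it divides by that level in the same libraries. The median CDS footprint level was 9.08 RPKM in members and 47.1 RPKM in the other covered genes, whereas the median 5′ UTR level was 16.5 and 12.1 RPKM. The mRNAs were also less abundant, with a median of 19.5 RPKM over the CDS in RNA-seq against 46.0 RPKM. That difference is not independent of the rule either, since the RNA came from the lysates whose footprints chose the members.

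**Figure D1:**
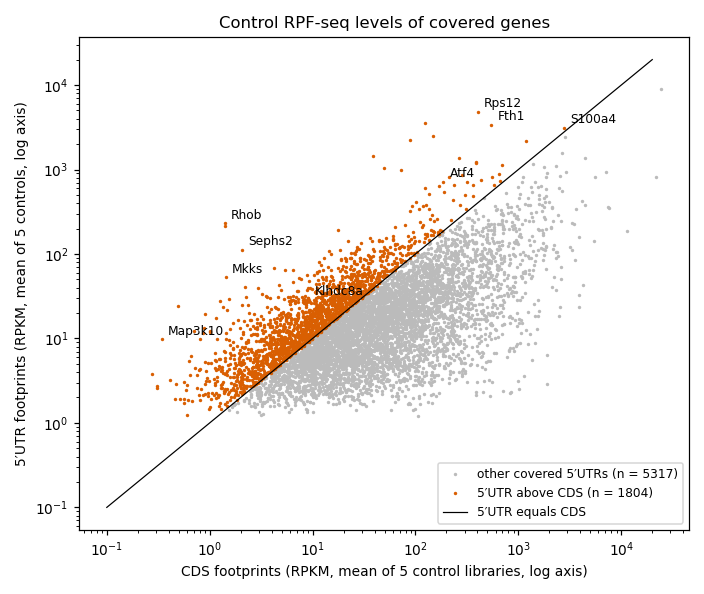
Mean 5′ UTR footprint level (RPKM, log axis) against mean CDS footprint level (RPKM, log axis) in the 5 control libraries, 1 point per covered gene. The 1804 members (orange) lie above the line of equal levels by the rule that chose them, most of them close to it, and Rhob, Mkks and Map3k10 lie far above it at CDS levels of a few RPKM or less.

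By the Gfp libraries, 6 of the 10 highest ratios belonged to single-exon genes of the minus strand: Rhob (control ratio 166), Hist1h3e (153), Sephs2, a selenophosphate synthetase (54.7), Hist1h2ag (37.1), Hist1h2ap (28.2) and Hist2h3c2 (21.1). Histone genes also share reads with near-identical copies and their values are uncertain. The remaining 4 were Srcap, Mkks, Map3k10 and Adamts10. Srcap, a chromatin-remodelling ATPase, had 5′ UTR footprints at 23.9, 26.7 and 17.6 RPKM in the 3 scramble libraries and 22.7 and 30.6 in the 2 Gfp libraries, and its CDS at 0.592, 0.616 and 0.359 (scramble) and 0.403 and 0.482 (Gfp). The same excess stood in its RNA, with a 5′ UTR-to-CDS ratio of 15.6 in control RNA-seq beside a footprint ratio of 49.5. Map3k10, a mixed-lineage kinase, differed from it. Its 5′ UTR carried 8.65, 9.25 and 8.85 RPKM in the 3 scramble libraries and 11 and 11.2 in the 2 Gfp libraries and its CDS 0.407, 0.308 and 0.366 (scramble) and 0.241 and 0.387 (Gfp), at an RNA ratio of 0.866 and a footprint ratio of 28.6. The Map3k10 mRNA was present at 21.2 ± 2.25 RPKM in the controls, and its CDS TE, the log2 CDS footprint level minus the log2 CDS RNA level, was -5.60 ± 0.35 (SD, n = 5). Adamts10, a secreted metalloprotease, had 25.9, 13 and 2.24 (scramble) and 32.1 and 25.4 (Gfp) RPKM on its 5′ UTR, and scramble replicate 3 stood far below the others.

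Of the members' 8 highest 5′ UTR levels in the Gfp libraries, 4 belonged to histone genes of the minus strand (Hist1h2ap, Hist1h4a, Hist1h1e and Hist1h2ag) and the others to Rps12, Fth1, Ftl1 and S100a4. Rps12, a ribosomal protein gene, carried 6087, 5222 and 3677 RPKM in the 3 scramble libraries and 4352 and 4787 in the 2 Gfp libraries, against 398, 518 and 429 (scramble) and 262 and 397 (Gfp) on the CDS. The ferritin genes Fth1 and Ftl1, whose 5′ UTRs hold the iron-responsive element, varied widely between control libraries. Fth1 lay at 1614, 3106 and 6749 (scramble) and 2959 and 2582 (Gfp) RPKM and Ftl1 at 734, 2516 and 4482 (scramble) and 1581 and 1946 (Gfp) RPKM, and both were lowest in scramble replicate 1 and highest in scramble replicate 3. Reads of Rps12, Fth1 and Ftl1 can be shared with near-identical copies elsewhere in the genome, so these levels are uncertain. S100a4, a calcium-binding protein of fibroblasts, had a footprint ratio of 1.12 beside an RNA ratio of 11.6. By gene name, 103 of 306 measured Zfp zinc-finger genes were members, 14 of 55 Hist genes and 4 of 77 Rps or Rpl genes; these families were picked after their counts were seen.

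RNA-seq was not used by the rule, and there the same 5′ UTRs did not usually exceed their CDS. The median RNA 5′ UTR-to-CDS ratio was 0.728 in members and 0.450 in the other covered genes. It was above 1 in 475 members (26.3%) and in 450 of the others (8.46%). The 4 highest RNA ratios among members were those of Gm47854 (101), Fau (37.8), Noct (22.9) and Atp6v0c (19.3), whose footprint ratios were 12.2, 1.96, 1.31 and 1.41. Across members, the log2 footprint ratio and the log2 RNA ratio had a Pearson correlation of 0.33, a description across genes, which share libraries and lengths and are not independent.

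**Figure D2:**
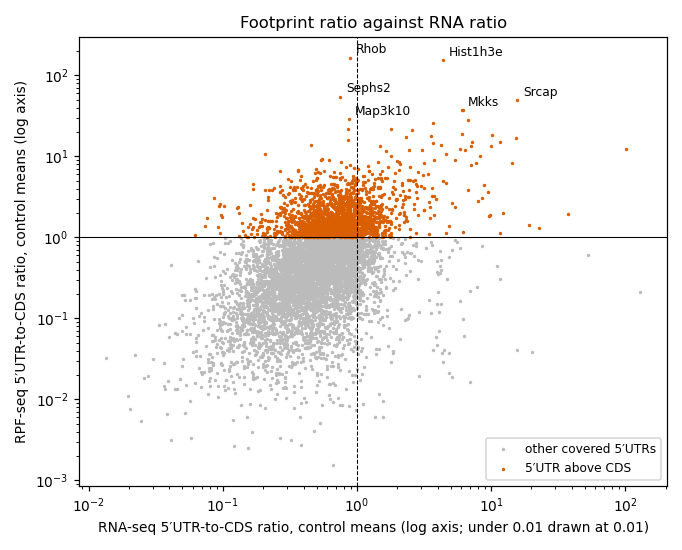
Footprint ratio (5′ UTR over CDS, control means, log axis) against the same ratio in RNA-seq (log axis), 1 point per covered gene. Members (orange) lie above a footprint ratio of 1 by choice, and 475 of them also lie right of an RNA ratio of 1.

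A larger share of members than of the other covered genes held uORFs. Of 1765 members with an annotated 5′ UTR, 1515 (85.8%) held at least 1 AUG uORF of 9 nt or more, against 2568 of 5254 others (48.9%). At least 2 were present in 56.4% and 25.2%, a uORF that ends ahead of the CDS in 75% and 41.4%, and a uORF that overlaps the CDS in 30.7% and 13.9%. Restricted to genes whose annotated 5′ UTR has the length behind the RPKM, a comparison added after the data were seen, the shares were 88.7% (n = 859) and 44.8% (n = 2466). Member 5′ UTRs were also longer (median 301 against 248 nt) and slightly poorer in GC (62.7% against 65.2%), and their CDSs were longer (median 1968 against 1251 nt). Where a uORF ended ahead of the CDS, the last such stop codon lay a median of 48 nt before the CDS in members and 77 nt in the others. Overlapping uORFs were left out of this distance. A CDS start context with a Kozak score of at least 9 was found in 23.1% of members and 29.7% of the others. These are counts over genes and were given no test.

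**Figure D3:**
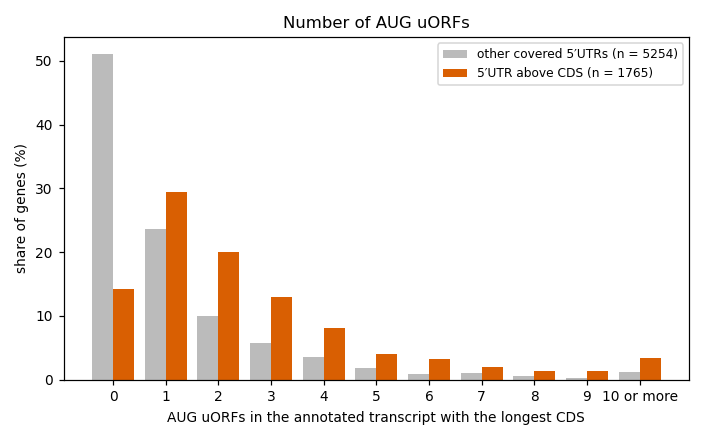
Share of genes (%) by number of AUG uORFs in the annotated transcript with the longest CDS, for 1765 members (orange) and 5254 other covered genes (grey). Without a uORF were 14.2% of members and 51.1% of the others.

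Within the members, the ratio and the number of uORFs were ordered alike. The median footprint ratio was 1.5 in the 250 members without an AUG uORF, 1.61 in the 520 with 1, 1.66 in the 354 with 2, 1.72 in the 442 with 3 to 5 and 1.90 in the 199 with 6 or more. Over the same classes, the control CDS translation efficiency (TE, as defined for Map3k10) had medians of -0.68, -0.94, -1.15, -1.22 and -1.51. The other covered genes showed an order of the same kind at a higher level, with a median TE of 0.31 without a uORF and -0.35 with 6 or more. Over all covered genes, members included, the median footprint ratio was 0.29 without a uORF and 0.94 with 6 or more. Among members the median 5′ UTR length was 208 nt without a uORF and 574 nt with 6 or more, so an order by uORF number is also one by length. Members without a uORF differed in RNA-seq, where 42.4% of them had an RNA ratio above 1, against 23.8% of the members with a uORF. In the other covered genes the shares were 11.2% without and 5.57% with a uORF, again in the same order. The members richest in uORFs were Zfp607a (26), Rmi1 (25), 4833420G17Rik (24) and Dsel (22).

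A choice made on control libraries favours genes that happened to lie high there, so a set chosen on some libraries can be read in others. By the same rule on the 2 Gfp libraries alone, 1826 genes were selected, 1662 of them members. Their median log2 footprint ratio was 0.72 in the Gfp libraries and 0.74 in the 3 scramble libraries that had not selected them, and 1626 of the 1826 (89.0%) had a ratio above 1 there. Selected on the scramble libraries instead, 1842 genes had a median of 0.74 in scramble and 0.68 in Gfp. The median was about as high in the control libraries that had no part in the choice.

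The knockdown libraries took no part in the choice either. Of the 1804 members, 1785 had a knockdown ratio above 1, 1483 (82.2%) had more 5′ UTR than CDS footprints in all 6 knockdown libraries, and 1 in none of them. Single knockdown libraries had 1690 to 1753 members above 1, and single control libraries 1404 (Gfp replicate 1) to 1723. Of the members with a control ratio above 2, 635 of 649 stayed above 1 in all 6. In the other direction, 418 covered genes that were no members had a knockdown ratio above 1, 63 of them in all 6 libraries.

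Per library, the median over members of the log2 5′ UTR-to-CDS footprint ratio, called relative 5′ UTR translation below, was 0.71, 0.92 and 0.63 in the scramble libraries and 0.47 and 0.91 in the Gfp libraries. With Denr shRNA1 it was 0.86, 1.01 and 0.96, and with Denr shRNA2 0.95, 1.04 and 0.88. The knockdown libraries lay at the upper end, but the groups overlapped, since scramble replicate 2 and Gfp replicate 2 reached the knockdown range. In the other covered genes the medians lay between -2.01 and -1.44 in the controls and between -1.48 and -1.14 in the knockdown, with Gfp replicate 2 (-1.44) inside the knockdown range. In RNA-seq, the members' median was -0.52 to -0.34 in the knockdown and -0.45 to -0.40 in 4 controls, with scramble replicate 3 apart at -0.67. The median CDS TE of members was -1.23 to -1.07 in the knockdown and -1.14 to -1.09 in 4 controls, with Gfp replicate 1 apart at -0.92.

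**Figure D4:**
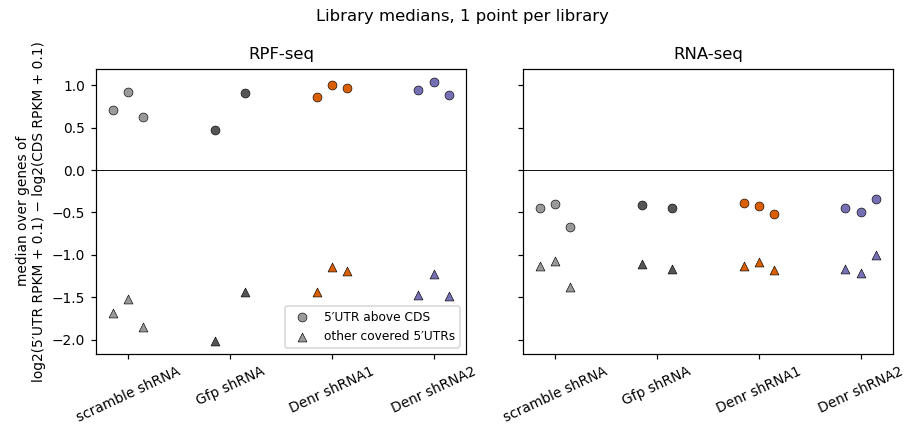
Median over genes of log2(5′ UTR RPKM + 0.1) minus log2(CDS RPKM + 0.1), 1 point per library, for members (circles) and other covered genes (triangles), in RPF-seq (left) and RNA-seq (right). The members' footprint medians lie above 0 in all 11 libraries and between -0.67 and -0.34 in RNA-seq.

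Whether Denr knockdown raised relative 5′ UTR translation further was tested in the 1826 genes chosen on the Gfp libraries, with the 6 knockdown against the 3 scramble libraries, since neither had chosen them. The fit (limma on log2 values with 0.1 RPKM added) covered all 10400 genes, with Benjamini-Hochberg adjustment over all of them. At an adjusted p under 0.1, 12 genes rose (0.657%, against 0.567% of all genes tested) and 0 fell (against 0.0288%). At an unadjusted p under 0.05, 338 (18.5%) were higher and 15 (0.821%) lower, against 18.1% and 1.13% of all genes. The median change was 0.26 on the log2 scale, while the median over all genes was 0.31, so the median of the selected genes lay under the shift common to all genes. Changes below are read against that shift. With each library centred on its median, 0 of the 12 passed. The count was 5 to 7 without Denr shRNA1 replicate 1, 2 or 3 or Denr shRNA2 replicate 1 or 3, 22 without scramble replicate 1 and 67 without scramble replicate 2.

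Klhdc8a, a kelch-repeat protein, had the highest rise of the 12. Its relative 5′ UTR translation was 1.67, 1.82 and 1.39 in the 3 scramble libraries and 1.16 and 2.11 in the 2 Gfp libraries and 2.71 to 3.56 (median 3.21) in the knockdown, a change of 1.55 ± 0.21 (SE) with adjusted p = 0.031 by limma. All 6 knockdown libraries lay above all 5 controls, and with Denr shRNA2 the mean (3.45) exceeded that with Denr shRNA1 (2.89). The CDS level was lower in every knockdown library than in every control, while the 5′ UTR levels overlapped. Klhdc8a was picked among the called genes, which favours such separations, and their share over all genes was not counted. On the 5′ UTR that carries the uORF printed above, Klhdc8a had 34.3, 38.4 and 26.4 (scramble) and 17.7 and 27.4 (Gfp) RPKM in the controls and 21.7 to 42.9 (median 31.2) RPKM in the knockdown, and on the CDS 10.7, 10.8 and 10.0 (scramble) and 7.85 and 6.25 (Gfp) RPKM and 1.75 to 5.00 (median 3.78) RPKM. With centred libraries the change was 1.17 (adjusted p = 0.26).

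In other members the 5′ UTR level itself was higher. Such a rise was common: over all genes with finite 5′ UTR values, the median log2 change against scramble was 0.31, and 75.3% were higher. Fbrsl1 carried 13.8, 12.1 and 10.7 (scramble) and 13 and 16.6 (Gfp) RPKM on its 5′ UTR in the controls and 17.1 to 26.9 (median 22.8) RPKM in the knockdown, and its relative 5′ UTR translation rose by 1.28 (adjusted p = 0.031). The 5′ UTR of Ulk1, the kinase that starts autophagy, went from 5.71, 7.24 and 7.80 (scramble) and 8.17 and 12.4 (Gfp) RPKM to 11.6 to 16 (median 13.5) RPKM, with a change of 1.11 ± 0.13 (adjusted p = 0.017). In Zfp507 it was 12.5, 12.2 and 13.5 (scramble) and 12.2 and 19.8 (Gfp) RPKM and 23.4 to 26.5 (median 24.8) RPKM, with 0.94 ± 0.10 (adjusted p = 0.013), while the CDS held 9.37 to 10.8 (median 10.2) RPKM in the knockdown and 10.5, 9.98 and 9.37 (scramble) and 9.93 and 9.39 (Gfp) RPKM in the controls. In Fbrsl1 and Zfp507, every knockdown library exceeded every control on the 5′ UTR, whereas in Ulk1 Gfp replicate 2 reached the knockdown range. They too were picked among the called genes, which favours such a separation, and its share over all genes was not counted. Etl4 (1.05), Hmgxb3 (1.03), Fbl, the rRNA methyltransferase fibrillarin (0.84), Slc41a1, a magnesium transporter (0.77), Dock8 (0.73), Dbf4, the activator of the Cdc7 kinase (0.73) and Tfdp2, a dimerization partner of E2F factors (0.69) also passed. Zfp960 passed (1.21, adjusted p = 0.099) on as few as 6 5′ UTR reads in a library, and Dock8 on as few as 5.

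Compared with each other, Denr shRNA2 and Denr shRNA1 left no member with a different relative 5′ UTR translation by limma at an adjusted p under 0.1 (0 higher and 0 lower of 1804, against 0.0288% and 0.0865% of all genes). At an unadjusted p under 0.05 there were 52 (2.88%) higher and 42 (2.33%) lower, against 1.68% and 3.94% of all genes. The median difference was 0.03 over members and -0.09 over all genes. In RNA-seq, the 5′ UTR-to-CDS ratio of knockdown against all 5 controls had 0 members called in either direction (against 0% of all genes). At an unadjusted p under 0.05, 44 (2.44%) were higher and 39 (2.16%) lower, against 2.60% and 2.18% of all genes. The median change was 0.03 in members and over all genes alike. The control RNA came from the lysates whose footprints chose the members.

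CDS footprints changed in both directions. In the set chosen on Gfp, 195 of 1826 rose (10.7%, against 14% of all genes) and 167 fell (9.15%, against 11.2%) by limma, knockdown against scramble, and the median change was 0.00 against 0.01 over all genes. Col11a1, a chain of fibrillar collagen, rose most. Its CDS held 2.87, 2.09 and 2.22 RPKM in the 3 scramble libraries and 3.72 and 3.15 in the 2 Gfp libraries and 5.24 to 6.75 (median 6.01) RPKM in the knockdown, without overlap (change 1.30 ± 0.12, adjusted p = 0.0002). Its RNA rose too, by 0.86. Tmem150a (0.95), Pmepa1, an inhibitor of TGF-beta signalling (0.87), and Pkig, an inhibitor of protein kinase A (0.83), followed. The largest decreases were those of Klhdc8a, which fell by 1.59 on the log2 scale (adjusted p = 0.0049), Anapc5, Adam19 (-1.02) and Pcgf3, a Polycomb RING-finger protein (-1.01). The CDS of Pcgf3 had 18.3, 22 and 16.5 (scramble) and 14.6 and 17.5 (Gfp) RPKM in the controls and 7.77 to 11.6 (median 9.28) RPKM in the knockdown, below every control, at a 5′ UTR level of 57.5 to 88.1 (median 76.4) RPKM against 71.8, 95.3 and 36.7 (scramble) and 58.3 and 83.5 (Gfp) RPKM. Col11a1 and Pcgf3 were picked among the called genes, which favours groups that do not overlap. How many of all genes have such groups was not counted. In 39 genes of the set, CDS footprints (against scramble) and RNA (against all 5 controls) both passed in the same direction. The share of all genes that did so was not counted. The total of 362 called genes became 203 without scramble replicate 3, and 17 in genes chosen on scramble with the Gfp libraries as controls.

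CDS TE sets the footprints against the RNA of the same lysate. In the set chosen on Gfp, 6 of 1826 fell (0.329%, against 0.0856% of all genes) and 0 rose (against 0.00951%) by limma with Benjamini-Hochberg adjustment over 10516 genes. At an unadjusted p under 0.05, 137 (7.50%) were lower and 30 (1.64%) higher, against 4.49% and 1.67% of all genes. The median change was -0.03 in the set and -0.01 over all genes. The 6 made up 66.7% of the 9 genes called lower in the whole table. In each of the 6, every knockdown library lay below all 5 controls. A call against scramble favours such a separation, and its share over all genes was not counted, so it adds no support to the calls. Without any 1 scramble library, or without Denr shRNA2 replicate 3, 0 passed, 1 passed without Denr shRNA2 replicate 1 or 2, and 3 passed without Denr shRNA1 replicate 3.

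Anapc5, a subunit of the anaphase-promoting complex, fell most. Its CDS TE was -2.86, -2.80 and -2.76 in the 3 scramble libraries and -2.91 and -2.65 in the 2 Gfp libraries and -4.50 to -3.83 (median -4.13) in the knockdown (change -1.37 ± 0.16, adjusted p = 0.043). Its CDS footprints were 63.5, 64.1 and 67.2 (scramble) and 66.7 and 69.8 (Gfp) RPKM in the controls and 23.5 to 39.4 (median 29.9) RPKM in the knockdown. The RNA was at 461 ± 24.6 RPKM (SD, n = 5) and 550.2 ± 47.5 RPKM (SD, n = 6), without overlap and not past the threshold (0.25). The 5′ UTR of Anapc5, with its 2-codon uORF, carried 91.5, 154 and 80.1 (scramble) and 132 and 198 (Gfp) and 81.4 to 241 (median 161) RPKM, with wide overlap. In Slc41a1, TE was -0.98, -1.15 and -1.29 (scramble) and -1.21 and -1.08 (Gfp) and -2.50 to -1.75 (median -2.26) (change -1.05 ± 0.16, adjusted p = 0.082), with more RNA (0.45, adjusted p = 0.015) and fewer CDS footprints (-0.66, adjusted p = 0.0065).

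Drosha, the nuclease that starts microRNA processing, had CDS footprints that did not pass the test (-0.12). Its CDS held 26.5, 25.5 and 26.4 (scramble) and 26 and 22 (Gfp) RPKM of footprints in the controls and 22 to 25.1 (median 24.7) RPKM in the knockdown, while its RNA was 35.2, 34.7 and 35.9 (scramble) and 35.7 and 36 (Gfp) RPKM and 48.2 to 61.7 (median 56.1) RPKM. The TE change of -0.78 ± 0.12 thus stood beside a rise in RNA of 0.64 (adjusted p = 0.00085). Samd4b, a Smaug-related RNA-binding protein (TE -0.96, RNA 0.35), and Ankrd27, a Rab effector (TE -0.81, RNA 0.43), also had both, so that RNA was called higher in 4 of the 6. Among all genes, 2.68% were called higher in RNA. TE subtracts the RNA level, so a call for lower TE favours genes with more RNA, and the count of 4 is a description. In Vegfd, a vascular endothelial growth factor, RNA did not pass (0.09, adjusted p = 0.57). Its CDS footprints were 70.9, 68.1 and 73.7 (scramble) and 70.6 and 68.5 (Gfp) RPKM in the controls and 43.8 to 54.4 (median 51.7) RPKM in the knockdown, with a TE change of -0.59 ± 0.10 (adjusted p = 0.082). In the annotated 5′ UTRs of Samd4b and Ankrd27 no AUG uORF was found. For Ankrd27 the annotated length equals that behind the RPKM (155 nt). For Samd4b 260 nt were searched where the length behind the RPKM is 296 nt.

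**Figure D5:**
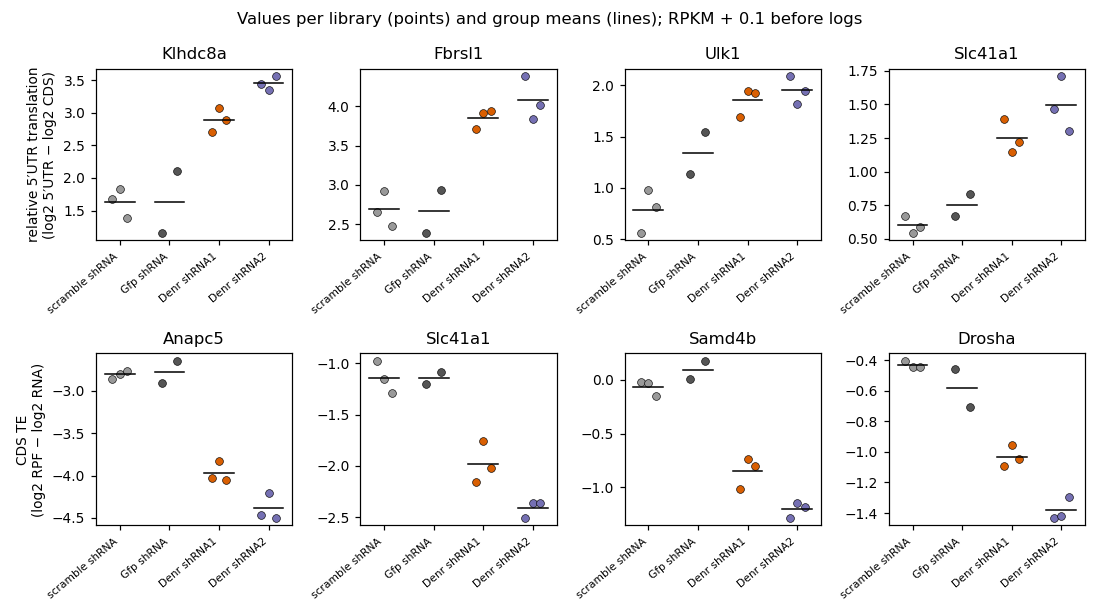
Relative 5′ UTR translation (upper row) and CDS TE (lower row), both on the log2 scale with 0.1 RPKM added, 1 point per library and a line at each group mean (n = 3, or 2 for Gfp). The knockdown libraries of Klhdc8a, Fbrsl1, Ulk1 and Slc41a1 lie above the controls, and those of Anapc5, Slc41a1, Samd4b and Drosha below them. All were picked among the called genes, which favours such a separation.

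The median TE change in the set chosen on Gfp was -0.01 in the 267 genes without an AUG uORF, -0.01 with 1, -0.03 with 2, -0.07 with 3 to 5 and -0.09 with 6 or more. TE was lower in 52.8% of those without a uORF and in 66.5% of those with 6 or more. The covered genes as a whole had medians of -0.01 without and -0.06 with 6 or more uORFs, an order of the same kind. The median change of relative 5′ UTR translation ran the other way, from 0.36 without a uORF to 0.16 with 6 or more. In the covered genes as a whole it ran from 0.40 to 0.17, again in the same order. These medians over genes carry no test.

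RNA abundance was tested in the 1804 members themselves, knockdown against all 5 controls, because the rule used no RNA-seq library. The control RNA came from the lysates whose footprints chose the members, so the test is not fully independent of the rule. By limma, 89 members rose (4.93%, against 2.68% of all genes) and 12 fell (0.665%, against 0.865%), and the median change was 0.06 against 0.03 over all genes. Dtx3, a ubiquitin ligase of the Deltex family, had 16.3, 20.2 and 19.2 RPKM in the 3 scramble libraries and 18.7 and 18.7 in the 2 Gfp libraries and 28 to 36 (median 31.5) RPKM in the knockdown (change 0.76 ± 0.08, adjusted p = 0.0005). Dock8 had 9.18, 8.50 and 8.82 (scramble) and 6.83 and 6.46 (Gfp) RPKM and 10.8 to 17 (median 13.9) RPKM (0.82), and its CDS footprints rose as well (0.68). Col11a1 (0.86) and 2810021J22Rik (0.78) were the others with the largest rises. The largest decreases were found in weakly expressed genes. Prl2c5 had 3.07, 3.12 and 2.38 (scramble) and 1.63 and 1.45 (Gfp) RPKM in the controls and 0.213 to 1.44 (median 0.934) RPKM in the knockdown, a log2 change of -1.39. Glyat had 3.50, 3.37 and 4.32 (scramble) and 3.30 and 1.89 (Gfp) RPKM and 1.05 to 1.59 (median 1.41) RPKM, a log2 change of -1.18. They were followed by Adam19 (-0.60) and Thbd, thrombomodulin (-0.51), a single-exon gene of the minus strand. In Dtx3, Dock8, Prl2c5 and Glyat the groups did not overlap. They were picked among the called genes, which favours such a separation, and its share over all genes was not counted. The 101 called members became 39 to 67 without any 1 scramble or Denr shRNA2 library and 168 without Gfp replicate 1.

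Of the genes with known regulatory uORFs in the eIF2 stress response, 8 of 17 measured were members. Atf4, the transcription factor that the pathway induces, had 667, 760.1 and 427 RPKM in the 3 scramble libraries and 799.8 and 908 in the 2 Gfp libraries on its 5′ UTR and 694 to 1209 (median 1044) RPKM in the knockdown, and 186, 193 and 135 (scramble) and 187 and 235 (Gfp) RPKM and 195 to 238 (median 219) RPKM on the CDS. The groups overlapped in both regions. Its CDS footprints (0.36, adjusted p = 0.048) and RNA (0.38, adjusted p = 0.027) rose, and its TE change was -0.04. The footprint ratio was 3.81 in the controls at an RNA ratio of 0.497. Atf5 (4.08), Ddit3 or CHOP (4.10) and Ppp1r15a or GADD34, which directs a phosphatase to eIF2 (4.11), had ratios close to it, and those of Ibtk (1.87), Ppp1r15b (1.76), Ifrd1 (1.66) and the eIF2 kinase Eif2ak3 or PERK (1.23) were lower. Among the 8, CDS footprints rose in Atf4, Eif2ak3 and Ibtk and fell in Ppp1r15b, and RNA rose in Atf4, Atf5 and Ddit3. Over the 17, CDS footprints rose in 5 and fell in 2 (14% and 11.2% of all genes), and RNA rose in 5 and fell in 0 (2.68% and 0.865% of all genes). In relative 5′ UTR translation and in TE, none of the 17 passed.

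The mRNAs with a second protein-coding ORF ahead of the main one were nearly all members, 7 of 8. Mkks, a chaperonin-like protein whose 5′ UTR holds 15 AUG uORFs, had 50.4, 65.5 and 44.7 RPKM in the 3 scramble libraries and 47 and 56.2 in the 2 Gfp libraries and 57.6 to 64 (median 59.5) RPKM in the knockdown on the 5′ UTR. On the CDS, the controls had 1.24, 1.78 and 1.47 (scramble) and 1.44 and 1.19 (Gfp) RPKM and the knockdown 1.03 to 1.51 (median 1.23) RPKM, and the groups overlapped in both regions. Its RNA ratio was 6.08, so that the 5′ UTR exceeded the CDS in RNA as well, though less than in footprints (37). Slc35a4, a nucleotide-sugar transporter of similar layout with 18 AUG uORFs, had 62.9, 81.6 and 75.2 (scramble) and 55.8 and 65.6 (Gfp) RPKM on the 5′ UTR and 5.75, 4.21 and 2.74 (scramble) and 4.05 and 4.50 (Gfp) RPKM on the CDS, with an RNA ratio of 0.853 and a footprint ratio of 16.1. Snrpn, which shares its mRNA with the upstream Snurf frame, had a ratio of 4.95, and Asnsd1 (2.53), Rpp14 (1.54), Mief1 (1.52) and Mocs2 (1.29) lay lower. Of these 7, RNA of Snrpn rose (0.46, adjusted p = 0.014), and no other test passed.

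In polyamine metabolism, 5 of 11 genes were members. Odc1, the enzyme that makes putrescine, had 116, 122 and 54.2 RPKM in the 3 scramble libraries and 82 and 139 in the 2 Gfp libraries and 102 to 181 (median 142) RPKM in the knockdown on its 5′ UTR, and 28.3, 26.2 and 27.3 (scramble) and 23 and 21.8 (Gfp) and 21.2 to 25.2 (median 22.7) RPKM on the CDS. Its CDS footprints fell by 0.25 on the log2 scale (adjusted p = 0.031), with overlap. CDS footprints of Azin2, an antizyme inhibitor (0.72, adjusted p = 0.0038), and Sat1, the acetyltransferase that breaks polyamines down (0.51, adjusted p = 0.031), rose. The change of Amd1, whose uORF responds to polyamines (-0.36), did not pass, and Azin1, the other antizyme inhibitor, was not among the genes chosen on Gfp and has no independent test. Over all 11 genes, CDS footprints rose in 4 and fell in 1 (14% and 11.2% of all genes), RNA rose in 2 and fell in 0 (2.68% and 0.865%), and none passed in TE or in relative 5′ UTR translation.

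The circadian clock had 8 members of 20 measured genes. Clock, a core activator, carried 24.1, 29.5 and 19 RPKM in the 3 scramble libraries and 18.1 and 21.4 in the 2 Gfp libraries on its 5′ UTR and 18.9 to 27.4 (median 25.4) RPKM in the knockdown, and 11.4, 11.5 and 11.3 (scramble) and 12 and 8.96 (Gfp) and 7.94 to 9.55 (median 8.61) RPKM on the CDS, where it fell by 0.40 on the log2 scale (adjusted p = 0.0082). Gfp replicate 2 lay in the knockdown range there. Nr1d1, the repressor REV-ERBalpha, had 93.1, 79.1 and 86.3 (scramble) and 90.9 and 77.4 (Gfp) RPKM on the CDS in the controls and 55.8 to 74.3 (median 62.8) RPKM in the knockdown, below every control, with less RNA as well (CDS -0.43, RNA -0.37). CDS footprints of Dbp (0.42) and Per1 (0.35) rose. Those of Per3 (0.28), Nr1d2 (0.06) and Nfil3 (0.17) did not pass, and Arntl was not among the genes chosen on Gfp. Nfil3 was among the 19 members whose knockdown ratio did not exceed 1 (0.881). Over the 20, CDS footprints rose in 6 and fell in 2 (14% and 11.2% of all genes), RNA rose in 2 and fell in 1 (2.68% and 0.865%), and none passed in TE or in relative 5′ UTR translation.

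Of the 11 genes the study names as DENR-dependent, 9 were members. The study chose this list on these samples, so it is not independent evidence of a direction. Its TE calls came from another algorithm (Xtail) on read counts, which Clock did not pass. Separately, it tested the 5′ UTRs of Klhdc8a, Etaa1, Map2k5, Lrrc28 and Clock in luciferase reporters. A gene that misses the threshold here is thus not shown to be independent of DENR. Klhdc8a rose in relative 5′ UTR translation, CDS footprints fell in Klhdc8a, Clock, Etaa1 and Vegfd, and TE fell in Vegfd. Etaa1, a replication stress protein whose uORF abuts the CDS, had 37.2, 38.7 and 42.6 RPKM in the 3 scramble libraries and 37 and 44.4 in the 2 Gfp libraries on its 5′ UTR and 45.5 to 76.2 (median 65.5) RPKM in the knockdown, above every control, and 8.53, 9.07 and 11.1 (scramble) and 9.22 and 7.28 (Gfp) and 5.84 to 7.78 (median 6.88) RPKM on the CDS. Its relative 5′ UTR translation differed by 1.08 ± 0.23 and missed the threshold (adjusted p = 0.12). The same held for Lrrc28 (1.43 ± 0.32, adjusted p = 0.13) and Jak2, a cytokine receptor kinase (0.82 ± 0.30, adjusted p = 0.22). Map2k5 (TE -0.40), Slc20a1, a phosphate transporter (TE -0.35), and Atf5 (TE -0.51) passed in neither measure, though RNA of Atf5 rose (0.35). Over the 11, CDS footprints fell in 5 (11.2% of all genes), TE fell in 2 (0.0856%) and RNA rose in 2 (2.68%).

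Among translation initiation and reinitiation factors, 3 of 20 were members, and these were Eif2d, which acts in the same recycling step as DENR (ratio 1.32), Eif4g2 (1.62) and Eif4g3 (1.45). CDS footprints of Eif2d were 32.6, 31 and 34.5 (scramble) and 33.4 and 29.9 (Gfp) RPKM in the controls and 26.5 to 30.6 (median 27.9) RPKM in the knockdown (-0.22, adjusted p = 0.041). Over the 20, CDS footprints rose in 1 and fell in 10 (14% and 11.2% of all genes), and RNA rose in 1 and fell in 1 (2.68% and 0.865%). Of 17 measured growth control genes with described uORFs, Ctbp1 (2.03), Erbb2, a receptor tyrosine kinase (3.57), and Tgfb3 (1.36) were members, and none of these passed a test, while CDS footprints fell in 4 of the 17 (11.2% of all genes). None of the 6 measured amino acid supply genes was a member; CDS footprints fell in 4 of them (11.2% of all genes) and RNA in 2 (0.865%). Of the 10 fibroblast markers, 4 were members. These were Col1a1 (1.49), Col3a1 (1.75), Fn1 (1.35) and S100a4 (1.12), and CDS footprints of the first 3 rose (by 0.43, 0.69 and 0.42). Over the 10, CDS footprints rose in 5 and fell in 0 (14% and 11.2% of all genes).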

How the data were processed

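Ribosome footprints (RPF-seq) and RNA (RNA-seq) of 11 NIH3T3 lysates were analysed. Per the labels and the study's methods, the authors aligned reads with Bowtie2 2.2.1 and TopHat2 2.0.11 (build GRCm38.p2), estimated isoforms with Cufflinks 2.2.1, assigned footprints by their A site and ambiguous reads first to the CDS, then to the 5′ UTR and then to the 3′ UTR, removed rarely detected genes, and deposited RPKM values after upper-quartile scaling in edgeR, separately for RPF-seq and RNA-seq. Multiples of the smallest step gave whole reads for 228799 of 228800 5′ UTR values (tolerance 0.05 reads); these served for depth only. The 5′ UTR lengths implied by reads and RPKM were compared with GENCODE vM21 (GRCm38), from which uORFs (at least 9 nt) and windows were taken. Names matched 10505 of 10516 gene IDs.

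Tests used limma 3.58.1 (R 4.3.3, eBayes with trend) on log2(RPKM + 0.1), fitted on all genes with Benjamini-Hochberg adjustment over all of them and a threshold of 0.1. Relative 5′ UTR translation is the log2 5′ UTR minus the log2 CDS footprint level, and TE pairs the footprint and RNA library of 1 lysate. Since the rule used the 5 control footprint libraries, footprint tests set the 6 knockdown against the 3 scramble libraries in genes chosen on the 2 Gfp libraries; RNA tests used all 5 controls and all members, and 1 further test compared the hairpins. Fold changes on this scale understate those of low genes. No 2 replicate libraries agreed within sampling noise (chi-square per gene of 1.72 or more). The members and the gene lists were chosen with earlier results of these data known. Named were the 10 highest ratios and 8 highest levels in Gfp, the 4 largest called changes in each direction per test, list members, the 3 genes on either side of the threshold, and the 4 members with most uORFs and with the highest RNA ratios; beyond this rule, all 12 and 6 genes called in relative 5′ UTR translation and TE are named, and gene families were picked after their values were seen. Scripts were tested on simulated data. Alternatives covered the pseudocount (0.01 and 1), filters, centring, no trend, a replicate block, leaving out each library, single hairpins or controls, and a ratio above 2; at least 20 reads, the members without single-exon genes of the minus strand and matched 5′ UTR lengths were added after the data were seen.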

Additional observations from a re-analysis of the deposited data

Results flagged for a closer look

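In 60 groups of 4 to 10 libraries, formed by the library medians of the members and by the named genes, the library farthest from the others was compared with the range of its group by Dixon's criterion, which chance meets in about 1 in 20 groups. It was met in 7. The members' median log2 RNA 5′ UTR-to-CDS ratio was -0.67 in scramble replicate 3 and -0.45 to -0.40 in the other controls, and their median CDS TE was -0.92 in Gfp replicate 1 and -1.14 to -1.09 in the others. Relative 5′ UTR translation of Adamts10 was 1.13 in scramble replicate 3, where the other controls had 4.07 to 4.81, on as few as 7 reads. In the knockdown, Dbf4 was at 0.63 in Denr shRNA1 replicate 1, below 0.91 to 1.06 in the others. Of the single-exon genes of the minus strand, Hist1h3e was at 8.16 in Gfp replicate 2 (others 6.78 to 7.13), Rhob at 8.77 in Denr shRNA1 replicate 1 (others 6.96 to 7.22) and Sephs2 at 5.47 in Denr shRNA1 replicate 3 (others 6.0 to 6.27). The causes were not tested.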

How the results depend on the processing

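None of the results reversed. Of the named genes' values, 483 stayed on their side of the threshold under an alternative and 171 passed it in the main setting but not under the alternative. The 12 genes called in relative 5′ UTR translation became 0 with centred libraries, 0 with Denr shRNA1 alone, 1 with Denr shRNA2 alone, 33 with all 5 controls in members, 4 with Gfp as control in genes chosen on scramble, 5 with a ratio above 2, and 5 to 67 without 1 library (67 without scramble replicate 2). The 362 in CDS footprints became 146 with all 5 controls, 17 with Gfp as control, 112 with a ratio above 2 and 203 to 472 without 1 library (203 without scramble replicate 3). The 6 in TE became 0 with Denr shRNA1 alone, 26 with all 5 controls, 0 with Gfp as control and 0 to 7 without 1 library. The 101 in RNA became 35 with Denr shRNA1 alone, 186 with scramble alone as control, 42 with a ratio above 2 and 39 to 168 without 1 library (168 without Gfp replicate 1). Between hairpins, 0 became 0 to 1 without 1 library. A ratio above 2 left 649 members, and 1713 to 1910 were found without 1 library. The share with an AUG uORF was 90.7% on transcripts with the longest 5′ UTR and 88.7% with matched lengths, the latter added after the data were seen. The cause was not tested where counts moved, apart from the smaller sets that a higher ratio and single hairpins leave. Replicate numbers do not pair the lysates by their labels, and same-numbered libraries correlated from -0.00 to 0.32 in CDS footprints and from -0.08 to 0.77 in RNA (15 pairs each). With a replicate block, the counts were 78 in relative 5′ UTR translation, 444 in CDS footprints, 0 in TE and 234 in RNA. Depth limits low members, of which 1358 of 1804 had at least 20 5′ UTR reads in all 11 footprint libraries.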
